A study of Mus musculus with 4 samples.

Results

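The 10 genes described here encode surface proteins and cytoplasmic or secreted proteins that are used to tell memory from naive T cells: Cd44, Klrg1, Ly6c1 and Cd55 at the surface, the galectins Lgals1 and Lgals3, the membrane proteins Tmem176a and Tmem176b, and Crip1 and Plac8. They are 10 of 23700 rows in each library's table, each found on 1 row by its symbol. They were chosen by their FPKM in these same libraries, with the difference between the genotypes already known; Ly6c1 and Cd55 were selected for being lower where other memory genes were higher. Their group differences are therefore given as a description, with no test. Helper T cells came from the spleen of C57BL/6 mice aged 43 weeks, and RNA was measured in 2 libraries labelled wild type (WT 1 and WT 2) and 2 labelled RIPK1-KO (KO 1 and KO 2). The series design states that RIPK1 was removed in T cells only. The transgene that drives the deletion, the deleted exons and whether the libraries of a group come from separate mice are matters not given in the sources used here, so the spread between libraries may be technical. All 4 titles carry the word Ctrl and no treatment is named.

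A T cell that has met antigen keeps a changed surface. CD44, the receptor for the matrix sugar hyaluronan, is raised on effector and memory T cells and is the usual marker that separates them from naive cells in mice. Galectins are small proteins that bind galactose-containing sugars on glycoproteins, and activated T cells make galectin-1 and galectin-3. Ly6C is a GPI-anchored protein found on part of the memory T cells of C57BL/6 mice, and CD55 is a GPI-anchored protein that speeds the decay of complement convertases.

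The level of the targeted gene is given first. Ripk1 measured 5.61 and 5.60 FPKM (fragments per kilobase of transcript, corrected for the number of mapped fragments) in WT 1 and WT 2, against 10.4 and 9.54 FPKM in KO 1 and KO 2. It was thus not lower in the libraries labelled KO. Because the deleted exons are not given, this whole-gene value cannot check the labels. Directions below hold for the libraries as labelled. Depth, estimated from the steps between low values, was about 21200000 and 22000000 fragments in the wild type and 17600000 and 19100000 in the libraries labelled KO. At that depth 1 FPKM over 1 kb of transcript means about 17.6 to 22 fragments, so that Klrg1, Lgals3 and Tmem176a rest on few fragments in the wild type. As deposited, values were higher in the libraries labelled KO for most genes: the median of 11074 tested rows differed by 0.38 on the scale of log2(FPKM + 1), and 0.01 after trimmed-mean scaling. Differences of the 10 genes are therefore also given relative to that median gene. T cell markers were present in each library: 10 such genes (Cd3d, Cd3e, Cd3g, Cd247, Cd4, Cd5, Cd28, Lat, Lck and Trat1) summed to 1205 and 1577 FPKM in WT 1 and WT 2, against 1791 and 1751 FPKM in KO 1 and KO 2.

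Of the 10 genes, 6 were higher in both libraries labelled KO than in either wild-type library (Cd44, Klrg1, Lgals1, Lgals3, Tmem176a and Tmem176b), 2 were lower in both (Ly6c1 and Cd55), and 2 overlapped (Crip1 and Plac8). Among all tested rows 58.5% lay above without overlap and 12.1% below, so the first count lies near that background. The median difference of the 10 genes was 1.63 (log2), against 0.38 over all tested rows. All 10 passed the filter on low values (at least 1 FPKM in at least 2 libraries); Lgals3 passed through the libraries labelled KO alone, since both its wild-type values were under 1 FPKM, and Klrg1 had only WT 1 above it.

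**Figure D1:**
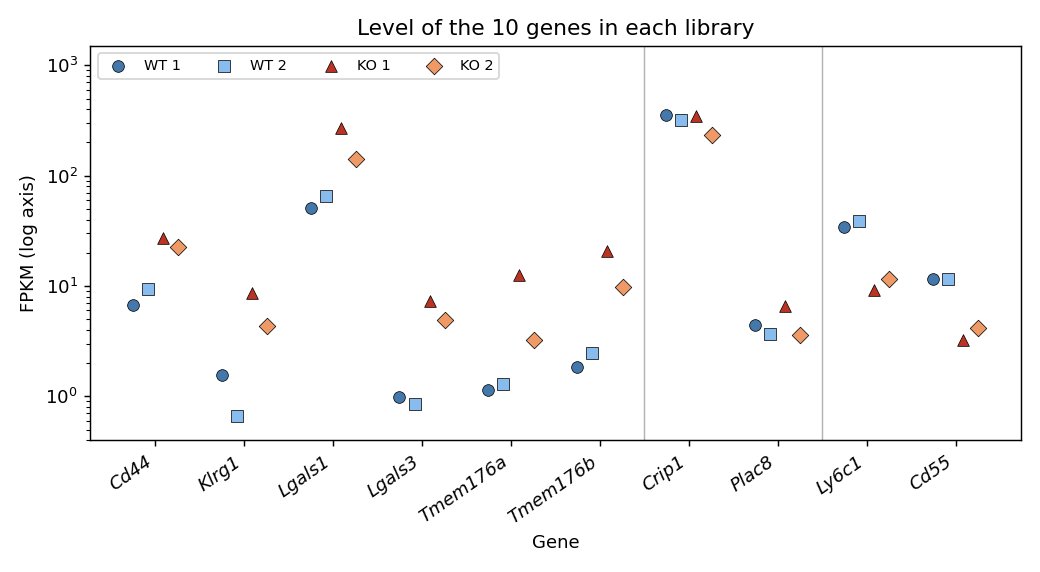
Level of each gene in each of the 4 libraries, in FPKM on a log axis; each point is 1 library, and grey lines separate the 6 genes whose libraries labelled KO lie above the wild type, the 2 that overlap and the 2 whose libraries labelled KO lie below. Lgals1 reaches 270 FPKM in KO 1 from 51.4 and 65.8 FPKM in the wild type, while Ly6c1 lies at 34.3 and 38.9 FPKM in the wild type, against 9.25 and 11.6 FPKM in the libraries labelled KO.

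Of the surface receptors, Cd44 read 6.77 and 9.35 FPKM in WT 1 and WT 2, against 27.3 and 22.4 FPKM in KO 1 and KO 2. The groups did not overlap, and the ratio of means was 3.08, with a difference of 1.52 (log2), or 1.14 above the median gene. Klrg1, an inhibitory receptor of late effector T cells and NK cells that binds cadherins, stood at 1.57 and 0.663 FPKM in the wild type, against 8.72 and 4.36 FPKM in KO 1 and KO 2. Its libraries were spread within both groups: WT 1 was 2.37 times WT 2, and KO 1 was 2.0 times KO 2. The ratio of means was 5.86 and the difference 1.80 (log2), on a scale that understates changes of low genes such as this.

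Genes that work with CD44 and KLRG1 were taken from lists of related genes, which are no members of the 10 and were tested with limma over all 11074 rows; 25.6% of those rows were called higher and 1% lower. Of 12 tested genes of hyaluronan and CD44 binding, 6 rose and 0 fell. They included Nf2, whose product merlin binds the CD44 tail, at 6.00 and 5.39 FPKM in the wild type, against 16.4 and 14.7 FPKM in KO 1 and KO 2 (adjusted p = 0.0129 in limma). Msn, encoding moesin, which links membrane proteins to actin, rose 2.02-fold (limma adjusted p = 0.0233), and Ezr, encoding ezrin, 1.81-fold (adjusted p = 0.0312). After trimmed-mean scaling 2 of the 12 rose and 1, the hyaluronidase Hyal3, was lower, against a background of 4.52% and 3.75%. The 2 were Spp1 (limma adjusted p = 0.0184) and Nf2 (0.0411), while the calls of Msn (0.0928) and Ezr (0.111) were lost. Without KO 1 those of Msn (limma adjusted p = 0.234) and Ezr (0.23) were lost too, and without KO 2 likewise (0.102 and 0.208). Ptpn11 and Inpp5d encode phosphatases that bind inhibitory receptors such as KLRG1. Inpp5d measured 4.89 and 6.16 FPKM in the wild type, against 17.9 and 16.6 FPKM in KO 1 and KO 2 (adjusted p = 0.0127 in limma), and Ptpn11 was at 5.45 and 9.59 FPKM against 26.2 and 31.4 FPKM (adjusted p = 0.0131). Both also passed after trimmed-mean scaling (limma adjusted p = 0.0226 and 0.0306). Of the other killer cell lectin receptors 3 could be tested, and 0 were called by limma in either direction (1, Klrd1, had an unadjusted p under 0.05). Klrb1f lay above the wild type in both libraries labelled KO, at 2.31 and 0.866 FPKM against 3.28 and 2.53 FPKM (limma adjusted p = 0.142). Klrd1 read 3.37 and 4.22 FPKM in the wild type, against 1.71 and 2.67 FPKM in KO 1 and KO 2 (adjusted p = 0.0819 in limma), and Klrk1 was at 1.35 and 1.27 FPKM against 0.844 and 0.634 FPKM (adjusted p = 0.155). The calls in this paragraph were lost without WT 1 (limma adjusted p = 0.0835 to 0.142 over the called genes of both lists); without that library 9 of 10915 tested rows were called higher and 0 lower.

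Both galectins were higher in the libraries labelled KO. Lgals1, encoding galectin-1, a dimer that can be secreted and that binds glycans of T cells, reached 51.4 and 65.8 FPKM in WT 1 and WT 2, against 270 and 142 FPKM in KO 1 and KO 2. KO 1 was 1.91 times KO 2, and each exceeded both wild-type libraries. The ratio of means was 3.51 and the difference 1.73 (log2), or 1.35 above the median gene. Lgals3, encoding galectin-3, which carries a sugar-binding domain on a long tail and can form oligomers, was far lower: 0.990 and 0.844 FPKM in the wild type, against 7.28 and 4.91 FPKM in KO 1 and KO 2. Its ratio of means was 6.65 and its difference 1.87 (log2). In FPKM, which are per length, Lgals1 exceeded Lgals3 by 51.9 and 78.0 times in WT 1 and WT 2, and by 37.1 and 28.8 times in KO 1 and KO 2, so the gap was smaller in both libraries labelled KO.

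Of 7 other galectin and galectin-like genes that could be tested, 3 rose and 0 fell, against the background of 25.6% and 1%; 0 passed in either direction after trimmed-mean scaling, where 4.52% of rows rose. Lgals3bp, a secreted glycoprotein that galectin-3 binds, measured 6.02 and 6.15 FPKM in WT 1 and WT 2, against 42.4 and 16.8 FPKM in KO 1 and KO 2 (adjusted p = 0.0187 in limma; 0.0544 after trimmed-mean scaling). Lgals8, which encodes a galectin with a pair of sugar-binding domains, was at 5.59 and 7.66 FPKM against 14.0 and 10.9 FPKM (limma adjusted p = 0.0374; 0.163 after trimmed-mean scaling). Lgalsl, a galectin-like gene listed under an older name, was at 0.502 and 1.20 FPKM against 2.58 and 3.49 FPKM (limma adjusted p = 0.0225; 0.0675 after trimmed-mean scaling). Lgals9, the next most abundant galectin after Lgals1, was at 30.02 and 30.5 FPKM and at 52.2 and 39.6 FPKM, and did not pass (adjusted p = 0.0956 in limma). The 3 calls were lost without WT 1 (limma adjusted p = 0.114 to 0.161), that of Lgals3bp without WT 2 (0.0712) and that of Lgals8 without KO 1 (0.141).

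Galectins bind sugars that the enzymes of N- and O-glycan branching build. Of 16 tested genes for such enzymes and for glycoproteins that galectins bind, 4 rose and 0 fell as deposited, near the background of 25.6% and 1%. With trimmed-mean scaling 2 were called higher and 1 lower, against 4.52% and 3.75% of all rows; the lower one was C1galt1c1, a chaperone of O-glycan synthesis, deposited at 4.53 and 6.05 FPKM against 3.39 and 3.43 FPKM (limma adjusted p = 0.0407; 0.0921 as deposited). Mgat5, whose product adds the branch that galectin-3 binds best, read 1.03 and 1.07 FPKM in the wild type, against 3.56 and 4.34 FPKM in KO 1 and KO 2 (adjusted p = 0.0131 in limma; 0.0411 after trimmed-mean scaling). Man2a1, a mannosidase that acts before it, was at 4.13 and 5.10 FPKM against 12.6 and 10.7 FPKM (limma adjusted p = 0.0140; 0.0439 after trimmed-mean scaling). St6gal1, the sialyltransferase whose product blocks galectin-1 binding, was at 13.7 and 17.6 FPKM against 23.6 and 25.04 FPKM and did not pass (limma adjusted p = 0.0664). Without WT 1 the calls were lost, with a limma adjusted p of 0.0851 for Mgat5 and 0.086 for Man2a1.

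**Figure D2:**
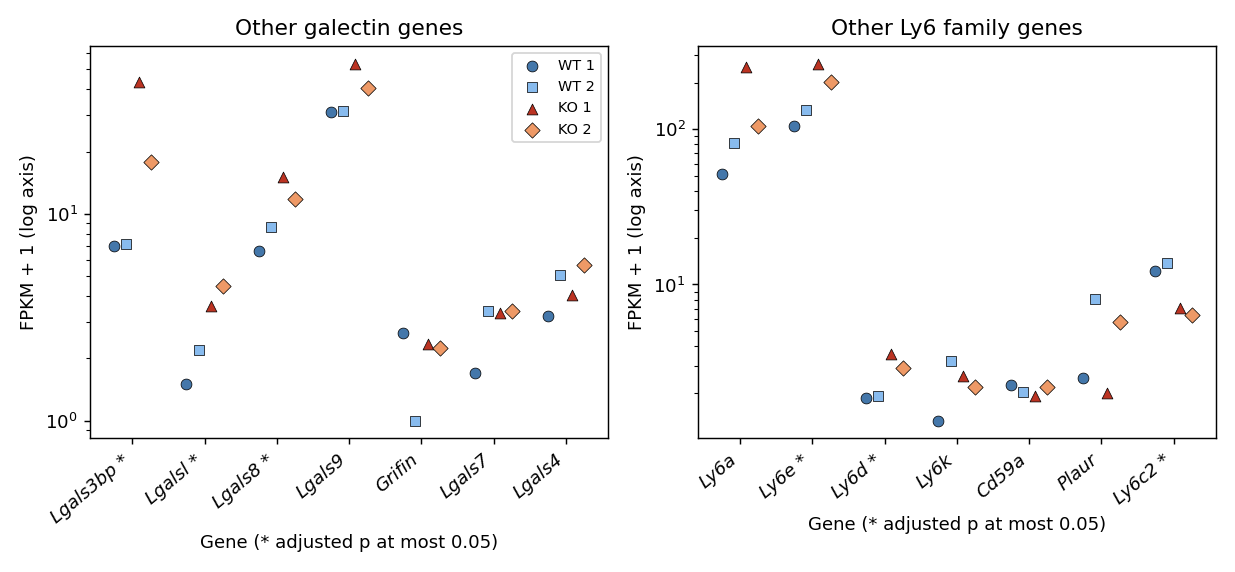
Tested galectin-related genes (left) and Ly6 family genes (right) other than the 10, as FPKM + 1 on a log axis; each point is 1 library, and an asterisk marks a limma adjusted p at or under 0.05 as deposited. Lgals3bp reaches 42.4 FPKM in KO 1, and Ly6c2 lies at 11.2 and 12.8 FPKM in the wild type, against 6.02 and 5.39 FPKM in the libraries labelled KO, below the wild type where Ly6e lies above it.

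Tmem176a and Tmem176b encode related 4-pass membrane proteins of the MS4A-like group that sit on endosomes and occur in dendritic cells, macrophages and lymphocytes of the Th17 type. The genes lie next to each other on opposite strands, and the RefSeq start-site windows of both (250 bases before to 50 after a start, build GRCm38.p6, the first start listed for each gene) share 155 bases. These windows are shown because both genes were higher in the libraries labelled KO and their windows overlap. Whether the shared bases act on either gene was not tested. Capitals mark the shared bases, which read as reverse complements of each other. The window of Tmem176a is chr6:48841233-48841532 on the plus strand and that of Tmem176b is chr6:48841088-48841387 on the minus strand.
Tmem176a: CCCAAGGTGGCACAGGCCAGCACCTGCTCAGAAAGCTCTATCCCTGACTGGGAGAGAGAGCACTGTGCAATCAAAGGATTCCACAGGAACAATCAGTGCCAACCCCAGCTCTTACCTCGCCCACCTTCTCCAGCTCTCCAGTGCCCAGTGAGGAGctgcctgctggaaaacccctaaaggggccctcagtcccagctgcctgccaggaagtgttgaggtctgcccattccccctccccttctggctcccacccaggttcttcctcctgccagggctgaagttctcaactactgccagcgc
Tmem176b: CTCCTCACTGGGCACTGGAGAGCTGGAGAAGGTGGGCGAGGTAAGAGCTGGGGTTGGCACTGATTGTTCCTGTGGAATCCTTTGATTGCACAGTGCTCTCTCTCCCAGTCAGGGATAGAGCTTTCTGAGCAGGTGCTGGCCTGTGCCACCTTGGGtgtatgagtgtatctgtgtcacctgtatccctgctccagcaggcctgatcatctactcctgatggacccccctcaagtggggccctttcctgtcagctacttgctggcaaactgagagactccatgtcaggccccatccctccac

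Tmem176b reached 1.83 and 2.45 FPKM in WT 1 and WT 2, against 20.7 and 9.86 FPKM in KO 1 and KO 2. Tmem176a measured 1.15 and 1.28 FPKM in the wild type, against 12.5 and 3.21 FPKM in KO 1 and KO 2. KO 1 was the highest library for both genes, and KO 2 also lay above both wild-type libraries. The ratios of means were 7.14 for Tmem176b and 6.44 for Tmem176a, and the differences 2.30 and 1.77 (log2). Tmem176b showed the largest difference of the 10 genes as deposited; relative to the median gene it was 1.92, a smaller size than that of Ly6c1 (-2.10). Tmem176a had the widest gap between the libraries labelled KO, KO 1 being 3.88 times KO 2 against 2.10 times for Tmem176b. The level of Tmem176b over that of Tmem176a was 1.59, 1.91 and 1.66 in WT 1, WT 2 and KO 1, and 3.07 in KO 2. The library kit named in the labels does not mark strand, so fragments from overlapping transcripts on opposite strands cannot be told apart. Of 1599 different 50-base windows in the longest GENCODE transcript of Tmem176b, 13 (0.813%) occur in Tmem176a transcripts on either strand.

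Of 5 tested MS4A genes, 1 rose and 0 fell, which is near the background. It was Ms4a6d, at 3.19 and 2.58 FPKM in the wild type, against 6.55 and 4.52 FPKM in KO 1 and KO 2 (adjusted p = 0.046 in limma), which did not hold with trimmed-mean scaling (0.278), without WT 1 (0.131), without WT 2 (0.138) and without KO 1 (0.226). Ccr6, the chemokine receptor of Th17 cells, which often carry the Tmem176 pair, was at 1.19 and 0.443 FPKM against 7.99 and 6.48 FPKM (limma adjusted p = 0.0106; 0.0238 after trimmed-mean scaling; 0.0835 without WT 1). Its KO 1 and KO 2 values were closer together than those of Tmem176a or Tmem176b. Ccr6 was taken from the list of other memory T cell surface genes. Whether Th17 cells had a part in the Tmem176 values was not tested.

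Markers of macrophages and monocytes, in which Lgals3, Plac8 and the Tmem176 pair are also high, were low, with a higher sum in the libraries labelled KO. The 12 listed genes summed to 2.81 and 4.76 FPKM in the wild type, against 9.63 and 10.8 FPKM in KO 1 and KO 2. Of 2 that could be tested 1, Lyz2, rose as deposited, against 25.6% of all rows. Lyz2 was at 0.164 and 1.53 FPKM against 2.99 and 4.38 FPKM (limma adjusted p = 0.0339). Its call was lost after trimmed-mean scaling (limma adjusted p = 0.0923), after quantile normalization (0.124) and without WT 1. Cd14 was listed at 0 in WT 1, WT 2 and KO 2 and at 0.263 FPKM in KO 1, and Csf1r was at most 0.354 FPKM and Fcgr1 at most 0.0238 FPKM. In bulk RNA, more cells of a type and more RNA per cell cannot be told apart. The 10 dendritic cell markers summed to 61.9 and 70.6 FPKM against 85.8 and 54.9 FPKM, with Itgax at most 0.297 FPKM and Flt3 at most 0.324 FPKM, and 0 of 4 tested were called by limma (0 also at an unadjusted p under 0.05). Most of that sum was Bst2 (24.4 to 58.2 FPKM), which many cell types express, Xcr1 (13.1 to 19.6 FPKM) and Siglech (10.9 to 13.8 FPKM); the latter pair were well above Itgax and Flt3, and whether their rows hold fragments of other genes was not tested. The 8 NK cell markers summed to 7.92 and 7.34 FPKM against 17.2 and 15.6 FPKM. Of 3 tested, 2 rose (Eomes and Gzma, which T cells also express), against 25.6% of all rows. Eomes was lost without WT 1 (limma adjusted p = 0.0835). Gzma, which entered the test through the libraries labelled KO alone, was lost after trimmed-mean scaling (limma adjusted p = 0.0572), without WT 1 (0.164) and without WT 2 (0.071). Klrb1c, the NK1.1 antigen of NK cells, was at 1.08 and 0.457 FPKM against 0.633 and 0.408 FPKM. The part of these cells in the values of the 10 genes was not tested.

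Crip1 and Plac8 did not separate the groups. Crip1, a small LIM-domain protein that is abundant in memory T cells, read 356 and 318 FPKM in WT 1 and WT 2, against 347 and 235 FPKM in KO 1 and KO 2. It was the most abundant of the 10 in every library, at rank 137 to 178 from the top of 23700 rows. Its difference was -0.23 (log2), or -0.61 relative to the median gene, and without KO 2 it was 0.045. Plac8, a cysteine-rich protein found in myeloid and effector lymphoid cells, stood at 4.44 and 3.66 FPKM in the wild type, against 6.55 and 3.58 FPKM in KO 1 and KO 2. KO 2 lay below both wild-type libraries and KO 1 above both, so that the difference of 0.23 (log2) became -0.13 without KO 1 and -0.15 after trimmed-mean scaling.

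Other LIM-domain genes gave a mixed list, in which 5 of 13 tested rose and 1 fell, against 25.6% and 1% of all rows. Of those that rose, Lasp1, which encodes an actin-binding protein, had the lowest p, at 14.1 and 17.7 FPKM in WT 1 and WT 2, against 38.4 and 33.3 FPKM in KO 1 and KO 2 (adjusted p = 0.0173 in limma; 0.0495 after trimmed-mean scaling; 0.0868 without WT 1 and 0.054 without KO 1). The one that fell was Pdlim4, at 13.3 and 14.4 FPKM in WT 1 and WT 2, against 3.75 and 6.78 FPKM in KO 1 and KO 2 (adjusted p = 0.0192 in limma; 0.0269 after trimmed-mean scaling; 0.108 without WT 1 and 0.0691 without WT 2). Crip2, the closest relative of Crip1 on the list, was at 0.640 and 1.20 FPKM against 1.56 and 3.07 FPKM and did not pass (limma adjusted p = 0.0855). After trimmed-mean scaling 1 LIM-domain gene rose and 1 fell.

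Ly6c1 and Cd55 stood on the other side of the wild type. Ly6c1 measured 34.3 and 38.9 FPKM in WT 1 and WT 2, against 9.25 and 11.6 FPKM in KO 1 and KO 2. The groups did not overlap, the wild-type mean was 3.51 times the KO mean, and the difference was -1.72 (log2), or -2.10 relative to the median gene. Ly6c1 has a close copy, Ly6c2, in the same gene cluster. Of 795 windows of 50 bases in the longest Ly6c1 transcript, 31.7% occur in Ly6c2 transcripts and 36.7% in any other gene, so part of the fragments could be split between the copies, and the labels do not say how they were assigned. The start-site windows of both copies (RefSeq, GRCm38.p6, the first start listed) are shown because both genes were lower in the libraries labelled KO. Capitals mark stretches of 12 or more bases found in both windows, 47 bases in each; the Ly6c1 window is chr15:75048788-75049087 and the Ly6c2 window chr15:75111922-75112221, both on the minus strand.
Ly6c1: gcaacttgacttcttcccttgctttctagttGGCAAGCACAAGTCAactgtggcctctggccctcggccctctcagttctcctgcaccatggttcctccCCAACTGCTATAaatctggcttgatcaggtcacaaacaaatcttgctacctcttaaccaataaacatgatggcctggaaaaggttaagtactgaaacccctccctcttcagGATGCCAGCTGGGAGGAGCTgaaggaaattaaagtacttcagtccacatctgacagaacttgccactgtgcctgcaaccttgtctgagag
Ly6c2: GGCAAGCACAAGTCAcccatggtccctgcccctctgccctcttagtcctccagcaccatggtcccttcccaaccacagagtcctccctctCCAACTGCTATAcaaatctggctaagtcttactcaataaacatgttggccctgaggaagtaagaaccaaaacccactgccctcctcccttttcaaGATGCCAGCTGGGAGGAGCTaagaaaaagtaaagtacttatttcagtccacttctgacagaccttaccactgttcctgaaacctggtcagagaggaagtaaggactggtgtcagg

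Ly6c2, tested as a related gene, fell from 11.2 and 12.8 FPKM in WT 1 and WT 2 to 6.02 and 5.39 FPKM in KO 1 and KO 2 (adjusted p = 0.0173 in limma; 0.0174 after trimmed-mean scaling). Because of the shared windows this is no independent measurement of Ly6c1. The call held without WT 2, KO 1 or KO 2 (limma adjusted p = 0.0161 to 0.0467) and was lost without WT 1 (0.0859). The level of Ly6c1 over that of Ly6c2 was 3.05 in both wild-type libraries and 1.54 and 2.16 in KO 1 and KO 2, so the ratio was lower in the libraries labelled KO too. Of 7 other tested Ly6 family genes, including Ly6c2, 2 rose and 1 fell, against 25.6% and 1% of all rows. Ly6e read 104 and 133 FPKM in the wild type, against 263 and 200 FPKM in KO 1 and KO 2 (adjusted p = 0.0384 in limma; 0.105 after trimmed-mean scaling). Ly6a, which encodes Sca-1, a protein of activated T cells, was at 50.6 and 80.3 FPKM against 250 and 104 FPKM and did not pass (limma adjusted p = 0.0652). Ly6d, a low gene that entered the test through the libraries labelled KO alone, was at 0.858 and 0.923 FPKM against 2.55 and 1.92 FPKM (limma adjusted p = 0.0333; 0.121 after trimmed-mean scaling). The calls of Ly6e and Ly6d were lost without WT 1 (limma adjusted p = 0.121 and 0.135), that of Ly6d without WT 2 (0.0783) and that of Ly6e without KO 1 (0.377) or KO 2 (0.11).

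Cd55 reached 11.5 and 11.6 FPKM in WT 1 and WT 2, against 3.22 and 4.16 FPKM in KO 1 and KO 2. The wild-type libraries differed by a ratio of only 1.01, the groups did not overlap, and the wild-type mean was 3.13 times the KO mean. The difference was -1.43 (log2), or -1.81 relative to the median gene. Its neighbour and copy Cd55b, listed under the older name Daf2, was at 1.31 and 1.05 FPKM against 0.607 and 0.557 FPKM and did not pass (limma adjusted p = 0.128). Of 3037 windows of 50 bases of Cd55, 10.9% occur in Cd55b transcripts. Of 6 other tested genes on the list of complement regulators and receptors, which also holds Adgre5, 2 rose and 0 fell as deposited. That is near the 25.6% of all rows called higher, and after trimmed-mean scaling 0 passed in either direction. C3 was at 0.0189 and 0.256 FPKM against 1.17 and 1.65 FPKM (limma adjusted p = 0.0212). It entered the test through the libraries labelled KO alone. Adgre5, listed as Cd97, encodes the adhesion receptor that binds CD55 and rose from 40.9 and 35.1 FPKM to 70.2 and 61.9 FPKM (limma adjusted p = 0.0379; 0.249 after trimmed-mean scaling). Cr1l, the widely expressed complement regulator Crry, was at 22.4 and 22.3 FPKM against 26.3 and 21.1 FPKM (limma adjusted p = 0.804). The call of Adgre5 was lost without WT 1 (limma adjusted p = 0.0902), WT 2 (0.06), KO 1 (0.331) or KO 2 (0.161).

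Profiles were compared by the largest absolute difference of centred log2(FPKM + 1) over the 4 libraries. The 10 genes themselves and symbols on more than 1 row were left out, so Ly6c1 and Cd55 were not ranked against each other. Among the other tested rows, the profiles nearest to Ly6c1 were Snora17 (0.31), Rps21 (0.33) and 1500011K16Rik (0.35). Those nearest to Cd55 were Romo1 (0.15), Rps24 (0.24) and Rps21 (0.24). Romo1 encodes a small mitochondrial protein, and Rps21 and Rps24 encode ribosomal proteins. The measure uses the same 4 libraries that chose Ly6c1 and Cd55.

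The libraries labelled KO differed from each other in a regular way across the 10 genes. KO 1 exceeded KO 2 for 8 of the 10, including each of the 6 that were higher than the wild type, and was below KO 2 for the 2 that were lower. KO 1 therefore lay farther from the wild-type mean than KO 2 for 9 of 10, with Crip1 the exception, and in 56.9% of all tested rows. By comparison, KO 1 exceeded KO 2 in 58.0% of all tested rows and in 60.9% of the 2832 rows called higher, and lay below KO 2 in 47.7% of the 111 rows called lower. After trimmed-mean scaling the count for the 10 genes was again 8, and that for the rows called higher 52.5%. Among 20 other memory T cell surface genes KO 1 exceeded KO 2 for 18. Markers of erythroid cells also differed between libraries, at a sum of 6.39 and 99.4 FPKM in WT 1 and WT 2, against 396 and 322 FPKM in KO 1 and KO 2, with 6 of 6 tested rows called higher by limma, against 25.6% of all rows. Alas2 and Slc4a1 were among those that passed the filter through the libraries labelled KO alone. After trimmed-mean scaling 2 of the 6 were called, after quantile normalization 1, and without WT 1 0 (limma adjusted p = 0.0835 to 0.232). Their part in the differences of the 10 genes was not tested.

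**Figure D3:**
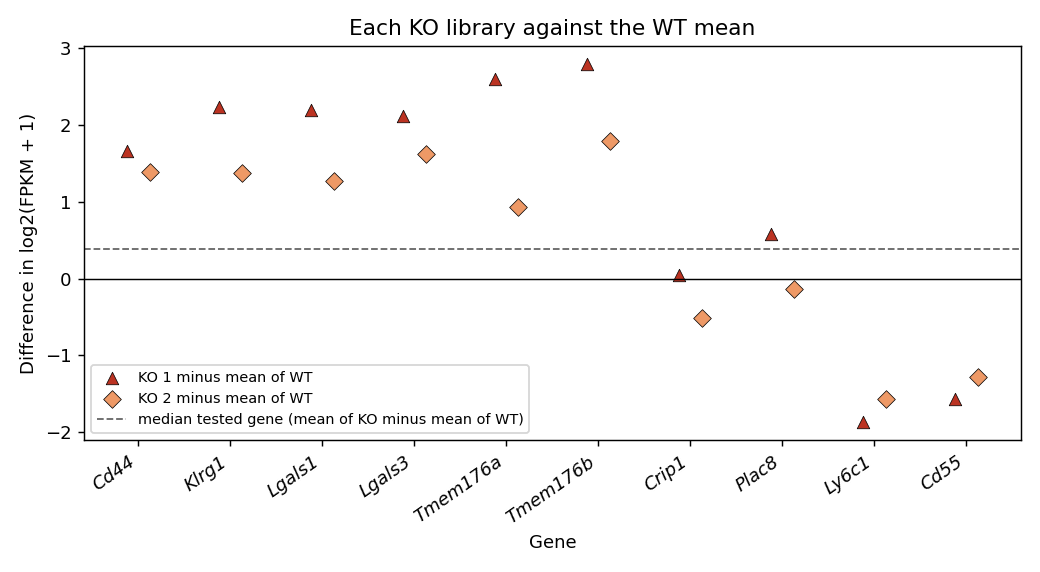
Difference of each library labelled KO from the mean of the wild-type libraries, in log2(FPKM + 1), for the 10 genes; triangles are KO 1, diamonds KO 2, the solid line marks no difference, and the dashed line the median tested gene at 0.38. KO 1 lies farther from the wild type than KO 2 for each gene except Crip1.

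The other memory T cell surface genes, tested as a list of related genes, give the setting of the 10. Of 20 tested, 14 rose and 0 fell as deposited, 13 with trimmed-mean scaling and 10 with quantile normalization, against backgrounds of 25.6%, 4.52% and 1.62%. Their median was 1.75 (log2), against 0.38 over all rows; 0 fell after either scaling, where 3.75% and 0.695% of all rows did. Itgae, the integrin CD103 of tissue-resident cells, measured 0.812 and 0.559 FPKM in the wild type, against 12.3 and 7.74 FPKM in KO 1 and KO 2 (adjusted p = 0.0078 in limma); both wild-type values were under 1 FPKM, so it entered the test through the libraries labelled KO alone. Itgal, the integrin LFA-1 alpha chain, was at 26.3 and 30.3 FPKM against 102 and 90.3 FPKM (limma adjusted p = 0.0115). Cxcr6 and Cd48, which are also used as memory markers, overlapped between the groups as Crip1 and Plac8 did: Cxcr6 was at 6.36 and 3.87 FPKM against 9.53 and 3.17 FPKM, and Cd48 at 49.97 and 56.3 FPKM against 75.1 and 45.1 FPKM. Of 10 naive T cell surface genes 3 rose and 0 fell. The 14 calls among the memory surface genes were lost without WT 1 (limma adjusted p = 0.0835 to 0.117), and 11 to 13 of the 20 rose when any other library was left out.

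The direction of the 8 genes with separate groups was kept under both other scalings. After trimmed-mean scaling the differences were 1.10 for Cd44, 1.48 for Klrg1, 1.28 for Lgals1, 1.56 for Lgals3, 1.44 for Tmem176a and 1.93 for Tmem176b (log2). They were -2.15 for Ly6c1 and -1.81 for Cd55, farther from 0 than as deposited, since that scaling lowers the KO values. Crip1 was at -0.69 with trimmed-mean scaling and -0.13 with quantile normalization, and Plac8 turned from above to below 0 under both.

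**Figure D4:**
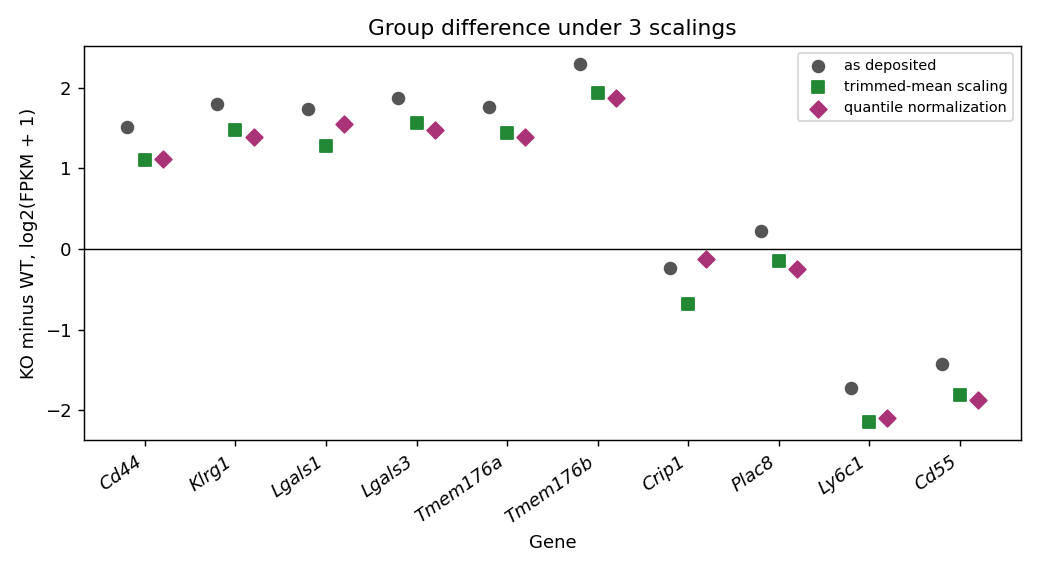
Difference between the means of the KO and wild-type libraries in log2(FPKM + 1) for each gene as deposited and under the trimmed-mean and quantile scalings; the line marks no difference. The 6 genes on the left stay above 0 and Ly6c1 and Cd55 below 0 under each, while Plac8 changes sign.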

How the data were processed

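RNA of splenic helper T cells was sequenced from 2 libraries labelled wild type and 2 labelled RIPK1-KO, made with the NEBNext Ultra RNA kit from 200 ng of total RNA, per the labels' protocols. The authors deposited 1 table of FPKM values per library, per the file headers; Bowtie 0.12.2 and mm8 are named in the submitters' processing notes, and the program behind the FPKM and its annotation are details not given in the sources used here. Each table held 23700 rows with 23234 symbols.

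Rows with at least 1 FPKM in at least 2 libraries (11074) were tested with limma 3.58.1 (intensity trend, R 4.3.3) on log2(FPKM + 1), two-sided, with Benjamini-Hochberg adjustment over all tested rows and a threshold of 0.05. Folds are ratios of mean FPKM. No permutation of 2 against 2 libraries can reach a two-sided p under 0.333. The 10 genes and the lists were chosen with earlier results of these data known. Named genes were the 10, Ripk1, up to 4 called genes of each related list by p, listed galectin and Ly6 genes, up to 3 markers of each other cell type and the 3 nearest profiles; Klrd1, Klrk1, Klrb1c, Klrb1f, St6gal1, C1galt1c1, Cxcr6, Cd48, Cr1l, Crip2, Cd55b, Ezr, Hyal3 and the macrophage, dendritic and NK cell markers named as low or as the bulk of a sum were added after their values were seen. Some lists share genes (Cd59a, Ms4a4b, Ms4a6b).

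Older symbols were matched through RefSeq synonyms. Promoter windows came from RefSeq (8 of the 10 genes matched); the files give no positions. Depth was estimated from low values of genes with 1 GENCODE transcript, taking fragments to be 200 nt long; 65.6% to 70.7% of low values lay within 5% of 1 to 5 whole fragments, so no count test was run. The trimmed mean of M values was computed on tested rows (30% of log ratios and 5% of levels trimmed at each side); libraries were divided by 0.799 (WT 1), 0.914 (WT 2), 1.20 (KO 1) and 1.14 (KO 2). The limma procedure was tested on simulated data. Tables and plots were made with pandas 2.3.3, numpy 2.4.6 and matplotlib 3.10.9 under Python 3.11.15.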

Additional observations from a re-analysis of the deposited data

How the results depend on the processing

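Each library was left out in turn, with the lone library of a group taken to vary like the other group. Over all rows, genes called higher (2832) then ran from 9 to 2189 and genes called lower (111) from 0 to 123, the lowest counts being those without WT 1 (3069 and 340 at an unadjusted p under 0.05, limma). Without KO 1 the counts were 1611 and 70. Of 98 tested related genes, those called higher (42) ran from 0 to 36 and those called lower (2) from 0 to 4; without WT 1, 47 and 3 had an unadjusted p under 0.05, and without KO 1, 23 were higher. With no filter on low values the counts over all rows were 3 and 0 (4604 and 541 at an unadjusted p under 0.05, limma), and over related genes 0 and 0 (58 and 6). After trimmed-mean scaling they were 501 and 415 over all rows and 21 and 4 over related genes. Higher calls thus made up a smaller part of all calls there than as deposited. After quantile normalization 179 genes and 15 related genes were higher. With the replicate number as a block, 230 rows and 4 related genes were lower, and 3909 rows and 47 related genes higher. The labels do not say that a number pairs libraries; the deviations of same-numbered libraries correlated at r = 0.108 across genes, which are not independent replicates. The cause of these shifts was not tested. The pseudocounts of 0.1 and 5, the filter at 5 FPKM and the test with no intensity trend kept each of these counts within 1.5 times.

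Of 90 recomputed differences of the 10 genes (9 alternatives each), 4 changed sign: Crip1 was at 0.045 without KO 2 (from -0.51 to 0.045 over the libraries left out), and Plac8 was at -0.13 without KO 1 (from -0.13 to 0.59), at -0.15 with trimmed-mean scaling and at -0.24 with quantile normalization. Another 18 moved by more than the spread between libraries, with the same sign. The replicate block is 1 of the 9 alternatives and cannot change these differences in a balanced design. Its part of the 90 is therefore no evidence of stability. With 2 libraries a group, and about 17.6 to 22 fragments behind 1 FPKM over 1 kb, the low wild-type values of Klrg1, Lgals3 and Tmem176a limit how well their ratios are known.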
